A study of Mus musculus with 6 samples.

Results

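The cell cycle and G1/S control genes are a set of 52 genes, chosen by name from the 24054 genes of each expression table, that encode cyclins, cyclin-dependent kinases (CDKs) and their inhibitors, E2F transcription factors, pocket proteins, DNA replication licensing factors, mitotic regulators, and Myc and p53 proteins. All 52 were present in the tables, and 51 passed the filter on low counts, which 14539 genes passed in all. The exception was Cdkn2c, with 2 to 9 counts per sample. The genes were followed by RNA-seq through the differentiation of mouse embryonic stem cells (ESCs) to endoderm. All samples came from 1 double knock-in (DKI) line, heterozygous for Foxa2-Venus and homozygous for Sox17-Cherry, in which fluorescent proteins fused to both transcription factors allow cells to be sorted. The d0 samples are undifferentiated ESCs, negative for Venus and Cherry. The d3F samples are cells sorted as Venus-positive and Cherry-negative after 3 days with Wnt3a and Activin A, and the d5FS samples are cells sorted as positive for both after 5 days of the same treatment. Each population has 2 replicates, 6 samples in all. The sorting genes define the populations, so all values refer to the cells of these gates and to 1 line.

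Entry into S phase is controlled by cyclin D bound to Cdk4 or Cdk6 and cyclin E bound to Cdk2, which phosphorylate the pocket proteins Rb1, Rbl1 and Rbl2 and thereby free E2F factors to transcribe genes for DNA replication. The Ink4 inhibitors (Cdkn2a to Cdkn2d) act on Cdk4 and Cdk6, and the Cip/Kip inhibitors (Cdkn1a and Cdkn1b) act mainly on cyclin E- and cyclin A-bound Cdk2. Mouse ESCs are known for a short G1 phase, abundant cyclin E and low levels of CDK inhibitors, and G1 lengthens as such cells differentiate.

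Libraries held 16457729 to 22768686 expected counts, the fragments that RSEM assigned to genes. Counts were scaled to CPM, the usual measure of a gene's counts relative to the library total, with library totals adjusted by TMM (trimmed mean of M values), and levels are compared between genes only as CPM per kb of effective transcript length. The 52 genes together took 0.75% and 0.717% of all counts in d0 (replicates 1 and 2), then 0.704% and 0.586% in d3F, and 0.418% and 0.477% in d5FS, so both d5FS samples lay below every other sample. The labels were checked against marker genes. All 8 endoderm markers, the sorting genes included, were higher and all 8 ESC markers lower in d5FS than in d0, and 5 of 6 mesendoderm markers were higher. Of 3 tested neuroectoderm markers 0 were called (edgeR, 1 at an unadjusted p under 0.05, and 0 by DESeq2's Wald test), and 1 was called lower with the replicate number as a block. The d0 libraries differed from each other, with summed ESC markers of 2220 CPM in replicate 1 and 7550 in replicate 2. Dppa5a (595 and 4448 CPM) made up most of that difference, and Tdgf1 was nearly equal (359 and 349 CPM). Summed neuroectoderm markers of 204 and 22.1 CPM were mostly Nes (201 and 17.9 CPM), while Sox1 was higher in replicate 2 (0.877 and 2.41 CPM). Calls are therefore also given without single libraries. Summed fibroblast feeder markers lay between 14.5 and 17.8 CPM in d0, between 37.1 and 85.4 in d3F and between 197 and 236 in d5FS, and 4 of the 9 tested, the matrix genes Col1a1, Col1a2, Col3a1 and Postn, were called higher in d5FS. Col1a2 alone had 0.746 and 3.28 CPM in d0 and 110 and 156 CPM in d5FS. The other 5 tested markers were not called, and Dcn and Lum, the latter not tested, stayed under 1 CPM in every sample. The ESCs had been depleted of feeder cells and passaged on gelatine before the course. The d3F and d5FS cells were sorted for the fluorescent proteins, and the d0 cells were sorted as negative for both. The source of these transcripts was not tested. Visceral endoderm markers summed to 11 and 13.7 CPM in d0, to 10.6 and 20.2 in d3F, and 271 and 291 in d5FS, with 7 of 9 called higher and 1 lower. The part of such cells in the values below was not tested. The 2 replicates of a population differed far beyond sampling noise. The methods of the study describe the replicates as independent biological ones, and the p-values measure the spread between these samples, which may also be in part technical.

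From d0 to d5FS, 13 of the 51 tested genes fell and 6 rose, and 32 did not pass the test. A gene was called at an adjusted p under 0.05 (edgeR's quasi-likelihood test, Benjamini-Hochberg (BH) adjustment over all 14539 genes) and an absolute log2 fold change above 1. Of all tested genes 10.4% were called lower and 12.4% higher in this comparison. The genes that fell were Ccnd1, Ccne1, Cdk6, E2f4, E2f8, Mcm2 to Mcm6, Pcna, Cdt1 and Trp53, and those that rose were Ccnd2, Cdkn1a, Cdkn1b, Cdkn2a, Cdkn2b and E2f5. The median log2 fold change was -0.62 over the 51 genes and 0.02 over all tested genes. In RNA from a sorted population, fewer cells in a phase of the cycle and less RNA per cell cannot be told apart. Leaving out 1 library lowered the number of calls from d0 to d5FS, in this set and over all tested genes. The counts of the set therefore cannot tell a dependence on that library from the general loss of calls. Without d5FS replicate 1, 2 genes were called higher and 3 lower, without d5FS replicate 2 the counts were 3 and 8, and without d0 replicate 2 they were 3 and 6. Ccnd1, Ccne1, Cdkn2a and Cdkn2b kept their calls in every such fit.

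**Figure D1:**
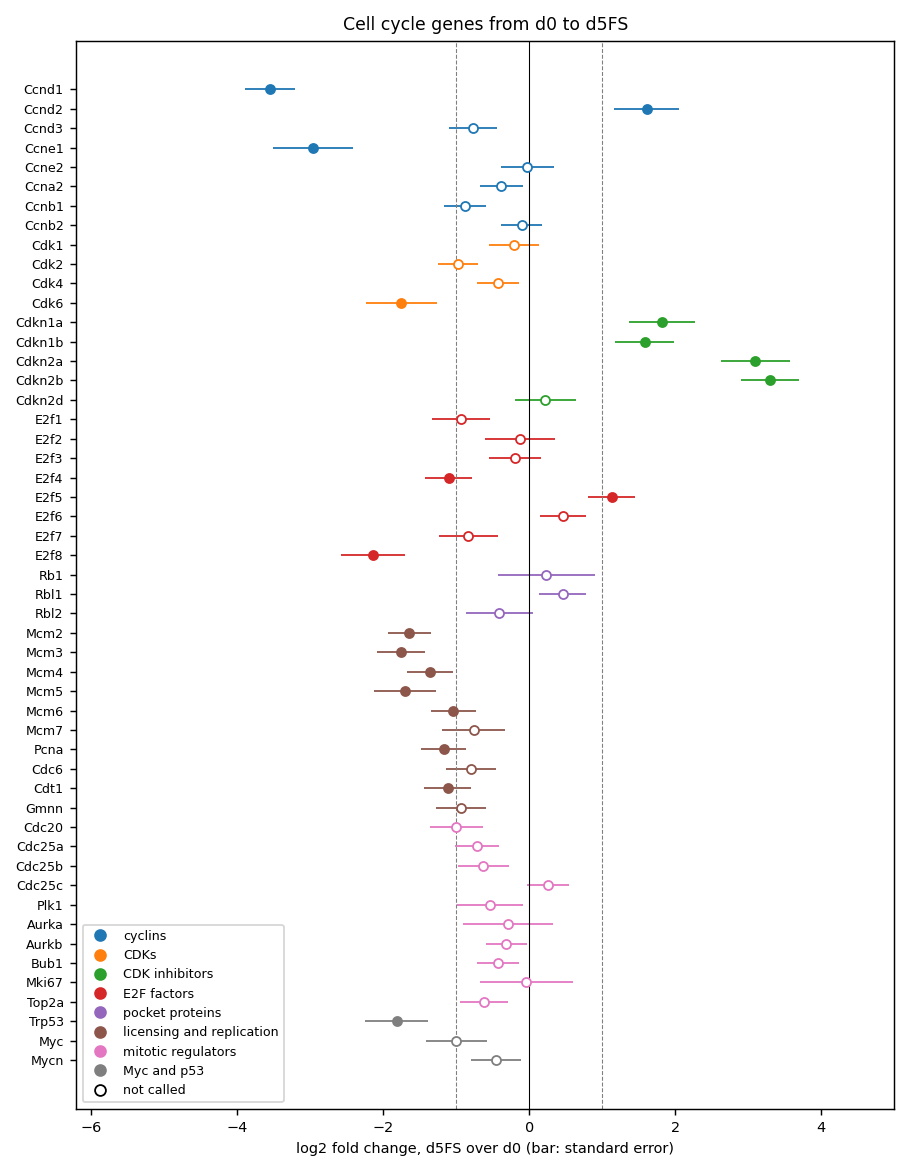
Log2 fold change from d0 to d5FS (x axis) of the 51 tested cell cycle genes (y axis), coloured by role, with the standard error as a bar; filled points passed the test (n = 2 samples per population), and dashed lines mark a log2 fold change of 1 in either direction. The 10 licensing genes all lie left of 0, 7 of them filled, while the 10 mitotic regulators are all open.

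Of the 10 licensing and replication genes 7 (70%) were called lower from d0 to d5FS, beside 10.4% of all tested genes. All 10 had a negative log2 fold change, with a median of -1.14. They build the replication machinery in G1 and S phase. Mcm2 to Mcm7 form the replicative helicase, Cdc6 and Cdt1 load it onto origins, Gmnn inhibits Cdt1, and Pcna is the sliding clamp of the DNA polymerases. The E2F words TTTCCCGC and TTTGGCGC, searched on both strands, occurred in the promoters of 6 of the 8 licensing genes that the RefSeq promoter table holds (75%), against 1.8% of the 27025 genes in that table. The window runs from 250 bases before to 50 bases from the annotated start. Of the 6 genes with it Mcm7 and Cdc6 were not called, the called genes Mcm2 and Pcna had none, and over all cell cycle genes it was in 40% of the 10 promoters of genes called lower and 32% of the 25 of genes not called. Promoters of the 4 licensing genes that were called lower and carry the word are shown 5′ to 3′ on the strand of the gene (GRCm38.p6), with the word or its reverse complement in capitals.
Mcm3, chr1:20820263-20820562, minus strand: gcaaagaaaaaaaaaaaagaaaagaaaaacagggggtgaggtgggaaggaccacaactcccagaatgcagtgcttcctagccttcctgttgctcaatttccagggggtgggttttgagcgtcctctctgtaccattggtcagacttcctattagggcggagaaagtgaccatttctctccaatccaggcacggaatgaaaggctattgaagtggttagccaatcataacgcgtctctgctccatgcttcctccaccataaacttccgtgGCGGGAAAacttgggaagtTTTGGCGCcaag
Mcm5, chr8:75109259-75109558, plus strand: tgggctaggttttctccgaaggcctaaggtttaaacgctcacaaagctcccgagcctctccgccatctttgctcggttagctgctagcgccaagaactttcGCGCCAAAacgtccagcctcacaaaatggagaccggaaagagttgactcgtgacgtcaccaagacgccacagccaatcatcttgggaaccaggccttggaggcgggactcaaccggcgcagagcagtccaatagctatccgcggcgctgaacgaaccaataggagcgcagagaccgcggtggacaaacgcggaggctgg
Mcm6, chr1:128359656-128359955, minus strand: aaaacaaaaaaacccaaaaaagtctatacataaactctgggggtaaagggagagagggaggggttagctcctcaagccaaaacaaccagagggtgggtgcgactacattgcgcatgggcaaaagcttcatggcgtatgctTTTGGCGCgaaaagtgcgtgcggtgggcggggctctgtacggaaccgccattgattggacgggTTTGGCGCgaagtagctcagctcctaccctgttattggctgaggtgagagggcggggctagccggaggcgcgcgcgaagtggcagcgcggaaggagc
Cdt1, chr8:122567765-122568064, plus strand: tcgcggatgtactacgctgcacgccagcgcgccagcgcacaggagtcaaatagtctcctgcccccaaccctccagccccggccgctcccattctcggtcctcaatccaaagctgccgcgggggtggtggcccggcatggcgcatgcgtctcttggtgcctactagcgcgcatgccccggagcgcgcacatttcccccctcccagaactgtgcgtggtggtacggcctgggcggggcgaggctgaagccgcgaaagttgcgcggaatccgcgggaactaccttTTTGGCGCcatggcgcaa
The words began 149 bases upstream of the start in Mcm5, 110 and 47 bases upstream in Mcm6, and 32 bases downstream in Cdt1, while Mcm3 held both words at 19 and 38 bases downstream. A match describes the letters in this window and does not show that E2F factors bind there.

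Mcm2 had 417 and 415 CPM in d0, 311 and 245 CPM in d3F and 121 and 147 CPM in d5FS. Every d3F sample lay below every d0 sample, and every d5FS sample below every d3F sample. The log2 fold change of Mcm2 from d0 to d5FS was -1.64 (standard error 0.30, edgeR BH-adjusted p = 0.00847). Mcm3 had 324 and 436 CPM in d0, 247 and 259 CPM in d3F and 88.7 and 136 CPM in d5FS, in the same non-overlapping order. It changed by -1.76 (standard error 0.33, edgeR BH-adjusted p = 0.00979). Mcm5, the helicase gene with the highest d0 level per length, had 539 and 773 CPM in d0, 364 and 436 CPM in d3F and 127 and 278 CPM in d5FS. Its d5FS replicates lay far apart, but both stayed below the d3F samples, and the change from d0 was -1.70 (standard error 0.42, edgeR BH-adjusted p = 0.0248). Mcm6 had 373 and 477 CPM in d0, 326 and 350.2 CPM in d3F and 182 and 233 CPM in d5FS, again without overlap between populations, and a change of -1.04 (standard error 0.30, edgeR BH-adjusted p = 0.0406).

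Mcm4 had 217 and 184 CPM in d0, 196 and 129 CPM in d3F and 72.8 and 83.9 CPM in d5FS. Its d0 and d3F samples overlapped and both d5FS samples were lower, with a change from d0 of -1.36 (standard error 0.31, edgeR BH-adjusted p = 0.019). Pcna, which per length was the most abundant licensing gene in d0 with 365 and 466 CPM per kb, had 382 and 496 CPM in d0, 409.9 and 360.2 CPM in d3F and 172 and 219 CPM in d5FS. Its d0 and d3F ranges overlapped and d5FS lay below both, with a change of -1.17 (standard error 0.31, edgeR BH-adjusted p = 0.0289). Cdt1 had 99.4 and 112 CPM in d0, 71.1 and 62 CPM in d3F and 37.3 and 60 CPM in d5FS, falling without overlap at each step, and changed by -1.12 (standard error 0.32, edgeR BH-adjusted p = 0.0375) from d0 to d5FS. Mcm7, Gmnn and Cdc6 were not called. Mcm7 had 284 and 465 CPM in d0, 299.5 and 387 CPM in d3F and 139.6 and 303 CPM in d5FS, with d5FS replicate 2 above d0 replicate 1. Gmnn had 70.1 and 123 CPM in d0, 72.1 and 82.6 CPM in d3F and 43.1 and 57.9 CPM in d5FS, and Cdc6 had 86.2 and 84.3 CPM in d0, 61.9 and 61.8 CPM in d3F and 33.5 and 64.6 CPM in d5FS. In both genes the d5FS samples lay below the d0 samples, and their changes were -0.93 (standard error 0.35, edgeR BH-adjusted p = 0.0845) and -0.80 (standard error 0.35, edgeR BH-adjusted p = 0.128). The Mcm7 exons share bases with Cops6, Ap4m1 and microRNA genes, whose reads may be counted in part as Mcm7.

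Leaving out 1 library moved the licensing count from 7 to 6 without d0 replicate 1, to 3 without d0 replicate 2, to 4 without either d3F replicate or without d5FS replicate 2, and to 0 without d5FS replicate 1. The log2 fold changes stayed negative in each of these fits, between -1.78 and -1.51 for Mcm2 and between -2.36 and -1.24 for Mcm5, the latter the smallest without d5FS replicate 1. The direction was the same under each scaling. The median log2 difference of all tested genes was 0.0205 with TMM, 0.127 with library size only and -0.167 with deposited TPM, and the licensing median relative to it was -1.18, -1.17 and -1.25.

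**Figure D2:**
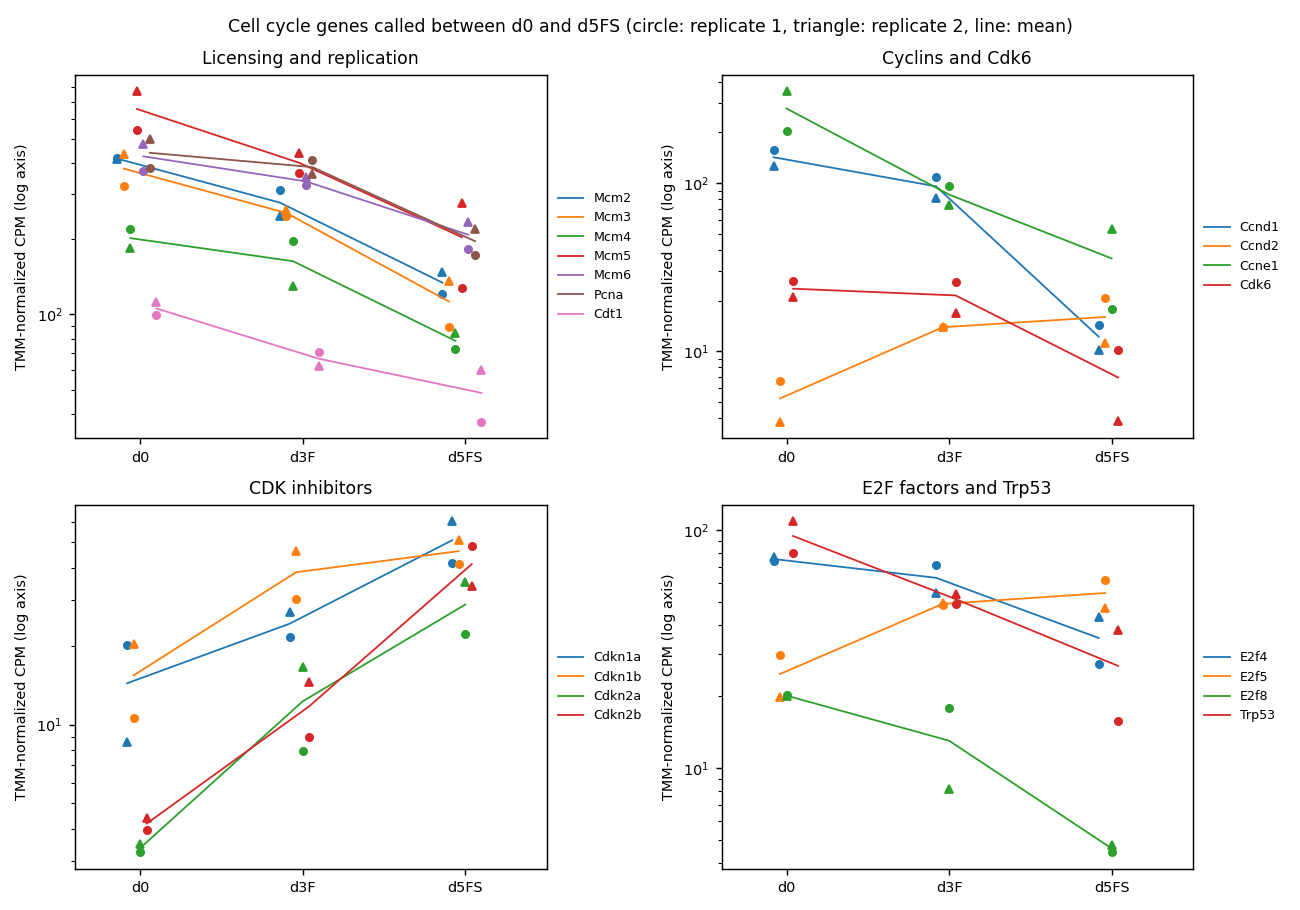
TMM-normalized CPM (y axis, log scale) of the 19 cell cycle genes called between d0 and d5FS, by population (x axis), in panels by role; circles are replicate 1, triangles replicate 2, and lines join the means of n = 2. The licensing genes and Ccne1 step down from d0 through d3F to d5FS, Ccnd1 drops mainly after d3F, and Cdkn2a and Cdkn2b step up at both steps.

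None of the 10 mitotic regulators passed the test from d0 to d5FS (edgeR, 2 at an unadjusted p under 0.05). DESeq2's Wald test, the fit with the replicate number as a block and the fit without d5FS replicate 2 each called 1 of them lower, Cdc20. Most of these genes act from G2 to the exit from mitosis, though not all act only then. Their median log2 fold change was -0.48, with 9 of 10 values below 0 and no test of their difference from the licensing genes. The promoters of these genes held another word. The CHR, a cell cycle element with the core TTTGAA or TTCGAA that is known from genes transcribed in G2 and M phase, occurred on either strand in 7 of 8 mitotic promoters of the table (87.5%), in 2 of 8 licensing promoters (25%) and in 21.7% of all promoters. The E2F words were found in 1 of the 8 mitotic promoters, that of Cdc25a. Promoters of the mitotic genes Top2a and Plk1 and of the mitotic cyclin Ccnb2 are shown in the same way, with CHR words in capitals, for comparison with the licensing promoters above.
Top2a, chr11:99024140-99024439, minus strand: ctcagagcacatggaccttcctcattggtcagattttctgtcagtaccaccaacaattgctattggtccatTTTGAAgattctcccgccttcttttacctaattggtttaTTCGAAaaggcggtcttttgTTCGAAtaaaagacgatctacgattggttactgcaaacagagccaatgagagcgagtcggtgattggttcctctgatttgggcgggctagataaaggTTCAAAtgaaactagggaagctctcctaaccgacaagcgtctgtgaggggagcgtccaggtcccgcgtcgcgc
Plk1, chr7:122159185-122159484, plus strand: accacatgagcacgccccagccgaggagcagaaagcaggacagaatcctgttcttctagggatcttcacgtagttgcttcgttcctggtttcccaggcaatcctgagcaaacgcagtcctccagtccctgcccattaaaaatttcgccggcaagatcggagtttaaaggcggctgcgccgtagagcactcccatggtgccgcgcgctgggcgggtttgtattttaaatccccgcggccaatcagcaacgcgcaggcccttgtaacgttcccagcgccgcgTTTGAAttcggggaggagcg
Ccnb2, chr9:70421505-70421804, minus strand: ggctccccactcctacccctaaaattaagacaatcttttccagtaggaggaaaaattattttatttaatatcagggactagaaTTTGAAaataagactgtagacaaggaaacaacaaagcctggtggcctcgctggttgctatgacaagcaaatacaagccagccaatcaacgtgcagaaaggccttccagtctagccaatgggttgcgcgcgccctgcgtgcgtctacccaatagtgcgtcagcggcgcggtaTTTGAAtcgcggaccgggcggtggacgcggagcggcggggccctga
In Top2a the words began 179, 140, 120 and 23 bases upstream of the start, in Plk1 30 bases downstream, and in Ccnb2 167 bases upstream and 4 bases downstream. The CCAAT word, which is bound by NF-Y, was present in all 8 mitotic promoters (100%), in 6 of 8 licensing promoters (75%), in 70% of the 40 cell cycle genes with a promoter and in 41.1% of all promoters.

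**Figure D3:**
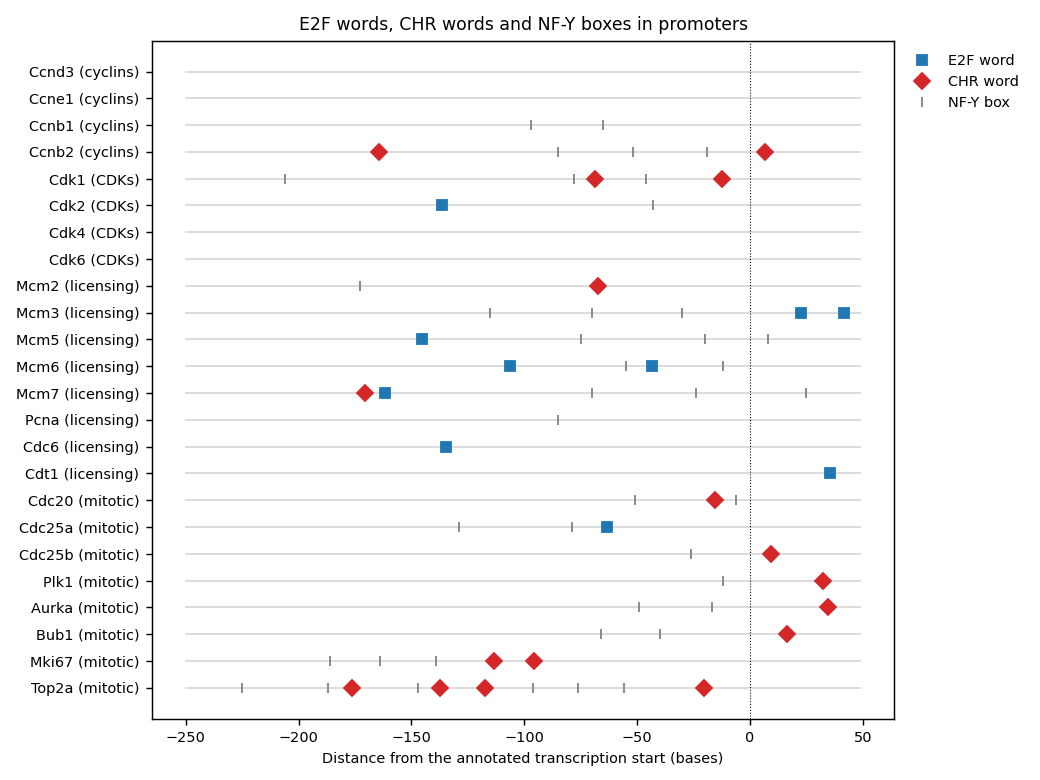
Positions of E2F words (squares), CHR words (diamonds) and NF-Y boxes (bars) relative to the annotated transcription start (x axis, bases) in the promoters of cyclin, CDK, licensing and mitotic genes of the table (y axis). E2F words occur in 6 of 8 licensing promoters and 1 of 8 mitotic ones, and CHR words in 2 of 8 and 7 of 8.

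Top2a, the topoisomerase that untangles DNA in S phase and mitosis, had 698 and 747 CPM in d0, 739 and 591 CPM in d3F and 567 and 373 CPM in d5FS. The d0 and d3F samples overlapped, both d5FS samples were lower, and the change from d0 was -0.62 (standard error 0.33, edgeR BH-adjusted p = 0.201). Cdc20, an activator of the anaphase-promoting complex, had 366 and 376 CPM in d0, 246 and 264 CPM in d3F and 125 and 246 CPM in d5FS. Its populations did not overlap at either step, although the lower d3F sample (246.4 CPM) and the higher d5FS sample (245.6 CPM) were nearly equal. The change from d0 to d5FS, -0.999 (standard error 0.36, edgeR BH-adjusted p = 0.0779), missed both thresholds, and with the replicate block it was -1.06 (standard error 0.27, edgeR BH-adjusted p = 0.0238). Without d5FS replicate 2 it was -1.55 (edgeR BH-adjusted p = 0.0423). Aurka, a spindle kinase, had 95.3 and 189.8 CPM in d0, 95.3 and 153 CPM in d3F and 46.7 and 186 CPM in d5FS. Replicate 2 was above replicate 1 each time, the 3 populations overlapped, and its change of -0.29 (standard error 0.61, edgeR BH-adjusted p = 0.761) turned positive without d5FS replicate 1 (0.38) and without d0 replicate 2 (0.29). Mki67, a proliferation marker, had 262 and 72.4 CPM in d0, 278 and 119 CPM in d3F and 214 and 112 CPM in d5FS. Here replicate 1 was higher in each population, and the spread between replicates exceeded any difference between populations. Plk1 had 78.1 and 97.2 CPM in d0, 85.6 and 98.8 CPM in d3F and 31.5 and 89.7 CPM in d5FS, with d5FS replicate 1 alone below the other samples. Cdc25a, Cdc25b, Cdc25c, Aurkb and Bub1, which encode phosphatases and kinases, had log2 fold changes between -0.72 and 0.25, none of them called.

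The study's sample list names a library of each population mRNA and its replicate total RNA, without a replicate number, whereas the labels and methods describe removal of ribosomal RNA from total RNA for all of them. How the replicates differed in preparation is therefore not known here. The share of counts in 68 histone genes, whose main transcripts lack a poly(A) tail, was 3.21% and 4.97% in d0, compared with 3.37% and 3.85% in d3F, and 1.31% and 2.58% in d5FS. Replicate 2 was higher in each population, and both d5FS values lay below the other samples. The part of library preparation in the replicate differences of Mki67 and Aurka was not tested.

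Of the 8 cyclins, Ccnd1 and Ccne1 fell (25%) and Ccnd2 rose (12.5%) from d0 to d5FS, beside 10.4% and 12.4% of all tested genes. Ccnd1, a D-type cyclin on chromosome 7 (mm10, 144929931 to 144939925, minus strand), had 158 and 127 CPM in d0, 109 and 81.8 CPM in d3F and 14.3 and 10.1 CPM in d5FS. The populations did not overlap, and most of the decrease came after d3F. Its log2 fold change was -0.58 (standard error 0.31, edgeR BH-adjusted p = 0.353) from d0 to d3F, -2.97 (standard error 0.34, edgeR BH-adjusted p = 0.013) from d3F to d5FS and -3.55 (standard error 0.35, edgeR BH-adjusted p = 0.00158) over the whole course. The call between d3F and d5FS was lost without d3F replicate 1 (-2.76, edgeR BH-adjusted p = 0.11), without d5FS replicate 1 (-3.26, edgeR BH-adjusted p = 0.0672) and without d5FS replicate 2 (-2.74, edgeR BH-adjusted p = 0.0759).

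Ccnd2, also a D-type cyclin, had 6.67 and 3.79 CPM in d0, 13.8 and 13.9 CPM in d3F and 20.8 and 11.2 CPM in d5FS. Both d0 samples were below all others, and the d3F and d5FS samples overlapped. The change between d0 and d5FS was 1.61 (standard error 0.44, edgeR BH-adjusted p = 0.0345), and it was not called without d0 replicate 2 (1.27), without either d3F replicate (1.60 and 1.61) or without d5FS replicate 1 (1.09). Reads of the overlapping gene 9330179D12Rik may count towards it. Ccnd3 had 79.1 and 104 CPM in d0, 69.1 and 45.2 CPM in d3F and 47.1 and 60 CPM in d5FS, with both d5FS samples below both d0 samples, and was not called, with a change of -0.77 (standard error 0.33, edgeR BH-adjusted p = 0.12). On the scale of CPM per kb, Ccnd3 (45 and 58) and Ccnd1 (44 and 35.3) stood far above Ccnd2 (1.2 and 0.68) in d0. In d5FS, Ccnd3 (26.4 and 33.5) was above the other D-type cyclins, and the ranges of Ccnd1 (3.97 and 2.8) and Ccnd2 (3.73 and 2) overlapped.

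Ccne1, the cyclin E that activates Cdk2 (chromosome 7, 38097984 to 38107534, minus strand), had 203 and 353 CPM in d0, 96.6 and 74.3 CPM in d3F and 17.8 and 53.5 CPM in d5FS. Every population lay below the one before it, although the replicates of d0 and of d5FS were far apart. The change was -1.70 (standard error 0.52, edgeR BH-adjusted p = 0.104) from d0 to d3F, which was not called, and -2.96 (standard error 0.54, edgeR BH-adjusted p = 0.00887) from d0 to d5FS, with -3.96 to -2.38 in the fits without 1 library. Ccne2, its paralog, had 44.7 and 32.1 CPM in d0, 36.7 and 41.4 CPM in d3F and 26.6 and 49 CPM in d5FS, with overlapping populations and a change of -0.02 (standard error 0.37, edgeR BH-adjusted p = 0.969). The Ccne2 exons share bases with Ints8, whose reads may be counted in part as Ccne2. On the scale of CPM per kb, Ccne1 was above Ccne2 in each d0 and d3F sample, and in d5FS the ranges overlapped, with 10.1 and 30.3 for Ccne1 and 9.4 and 17.3 for Ccne2.

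**Figure D4:**
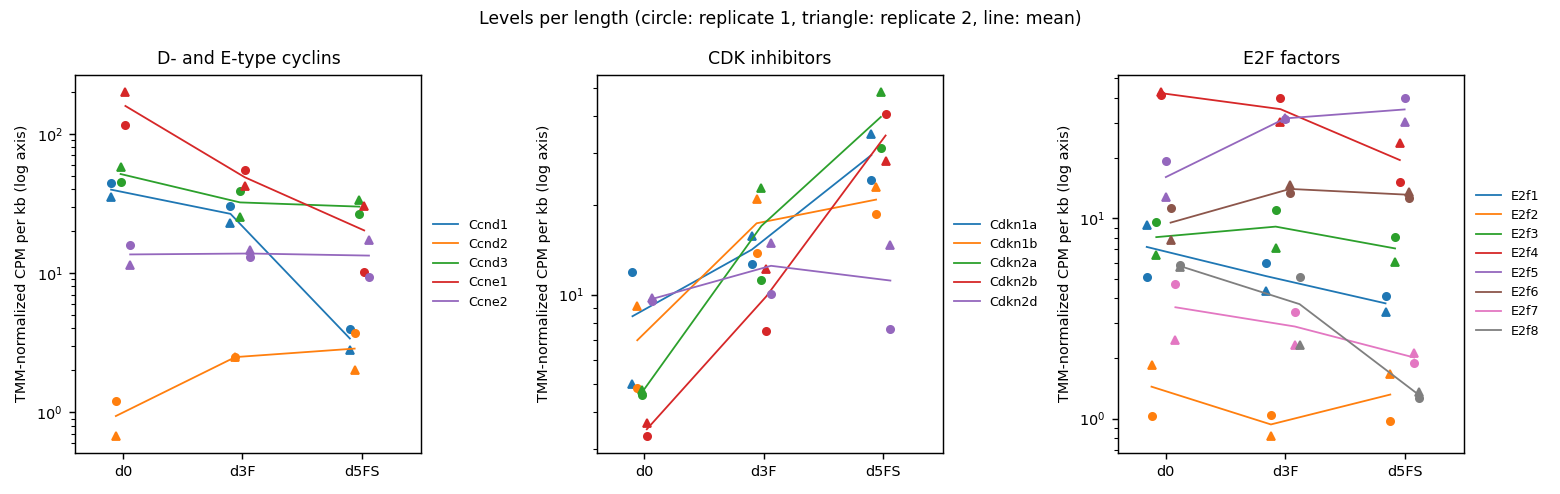
TMM-normalized CPM per kb of effective length (y axis, log scale) of D- and E-type cyclins, CDK inhibitors and E2F factors by population (x axis); circles are replicate 1, triangles replicate 2, and lines join the means of n = 2. Ccnd1 falls to the level of Ccnd2 by d5FS, the inhibitors other than Cdkn2d rise from d0, and E2f4 and E2f5 exchange their order.

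The cyclins of S phase and mitosis were not called. Ccna2 had 243 and 196 CPM in d0, 233 and 180.2 CPM in d3F and 174 and 163 CPM in d5FS and Ccnb2 had 87.2 and 82.6 CPM in d0, 103 and 77.3 CPM in d3F and 84 and 74.3 CPM in d5FS. Ccnb1, the main partner of Cdk1 in mitosis, had 476 and 554 CPM in d0, 439 and 369 CPM in d3F and 262 and 298 CPM in d5FS. Its populations stepped down without overlap, but the change of -0.88 (standard error 0.29, edgeR BH-adjusted p = 0.061) did not pass the test. Ccnb2 overlapped in all 3 populations, with a change of -0.10 (standard error 0.28, edgeR BH-adjusted p = 0.82) that turned to 0.01 when only library size was scaled.

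Of the 4 CDKs 1 was called lower (25%, beside 10.4% of all tested genes), Cdk6. It had 26.1 and 20.9 CPM in d0, 25.9 and 17 CPM in d3F and 10.1 and 3.84 CPM in d5FS. The d0 and d3F samples overlapped and both d5FS samples were lower, with a change of -1.75 (standard error 0.49, edgeR BH-adjusted p = 0.0348) from d0 to d5FS. This call was lost without d0 replicate 1 (-1.60), without d0 replicate 2 (-1.89) and without d5FS replicate 2 (-1.21). Cdk4, the other partner of D-type cyclins, had 448 and 439 CPM in d0, 465 and 459 CPM in d3F and 291 and 370.1 CPM in d5FS, with 395 and 382 CPM per kb in d0 against 11.6 and 9.19 for Cdk6. It was not called, at -0.42 (standard error 0.29, edgeR BH-adjusted p = 0.315). Cdk2 had 74.7 and 83.1 CPM in d0, 65.4 and 67.5 CPM in d3F and 36.4 and 44.2 CPM in d5FS, lower at each step without overlap. Its adjusted p passed, but its change was within a log2 fold of 1, -0.97 (standard error 0.27, edgeR BH-adjusted p = 0.0372). Cdk1, the kinase of mitotic entry, had 182 and 254 CPM in d0, 175 and 259 CPM in d3F and 157 and 221 CPM in d5FS, with replicate 2 higher throughout and overlapping populations. The Cdk4 and Cdk2 exons share bases with Tspan31 and Pmel.

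The CDK inhibitors of the set moved the other way. Of 6, 5 could be tested and 4 (80%) were called higher in d5FS than in d0, beside 12.4% of all tested genes. The median log2 fold change over the 5 was 1.82. Cdkn1c, an inhibitor outside the set, was not called. It had 53.3 and 60.3 CPM in d0, 63.2 and 46 CPM in d3F and 52.3 and 26.8 CPM in d5FS. Per length Cdkn1c had 31.3 and 35.1 CPM per kb in d0, above every inhibitor of the set there, and 30.5 and 15.6 in d5FS. Cdkn2b, which encodes p15Ink4b (chromosome 4, 89306299 to 89311039, minus strand), had 3.95 and 4.41 CPM in d0, 8.97 and 14.6 CPM in d3F and 48.6 and 33.9 CPM in d5FS. It rose without overlap at both steps, by 1.49 (standard error 0.38, edgeR BH-adjusted p = 0.0624) and 1.81 (standard error 0.37, edgeR BH-adjusted p = 0.0583), neither of which was called, and over the whole course by 3.30 (standard error 0.40, edgeR BH-adjusted p = 0.00263). With the replicate block both steps were called, at 1.48 (edgeR BH-adjusted p = 0.0441) and 1.83 (edgeR BH-adjusted p = 0.0313).

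Its neighbour Cdkn2a (chromosome 4, 89274471 to 89294653, minus strand) had 3.25 and 3.49 CPM in d0, 7.96 and 16.6 CPM in d3F and 22.4 and 35.4 CPM in d5FS. It stepped up without overlap, and its change between d0 and d5FS was 3.10 (standard error 0.47, edgeR BH-adjusted p = 0.0046). The gene gives rise to p16Ink4a and p19Arf from separate first exons, and the gene-level count cannot tell them apart. From d0 to d3F its change of 1.87 (standard error 0.45, edgeR BH-adjusted p = 0.0558) was not called, and with the replicate block it was 1.77 (edgeR BH-adjusted p = 0.0237). Both genes kept their d0 to d5FS calls in all 17 alternatives.

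Cdkn1a, which encodes p21Cip1, had 20.2 and 8.61 CPM in d0, 21.7 and 27.1 CPM in d3F and 41.7 and 60.1 CPM in d5FS. The d0 replicates were far apart, yet no population overlapped with the next, and the change between d0 and d5FS was 1.82 (standard error 0.45, edgeR BH-adjusted p = 0.0234). Cdkn1b, which encodes p27Kip1, had 10.6 and 20.3 CPM in d0, 30.4 and 46.4 CPM in d3F and 41.3 and 51.2 CPM in d5FS. Both d0 samples were below the rest, and d3F and d5FS overlapped. It changed by 1.58 (standard error 0.40, edgeR BH-adjusted p = 0.0266) over the course, and the step from d0 to d3F, 1.31 (standard error 0.40, edgeR BH-adjusted p = 0.104), was called only with the block (1.35, edgeR BH-adjusted p = 0.0231). The d0 to d5FS call of Cdkn1a was lost without d0 replicate 2 (1.34) and without either d5FS replicate (2.06 and 1.54), and that of Cdkn1b without d0 replicate 1 (1.18) and without either d5FS replicate (1.72 and 1.43). Cdkn2d, which encodes p19Ink4d, had 10.1 and 10.5 CPM in d0, 10.7 and 16.1 CPM in d3F and 8.17 and 15.8 CPM in d5FS, with overlapping populations and a change of 0.22 (standard error 0.42, edgeR BH-adjusted p = 0.736). Per length, the 4 inhibitors that rose were between 18.7 and 48.4 CPM per kb in d5FS and between 3.34 and 11.9 in d0. Scaled by library size or by deposited TPM, the median of the inhibitors relative to all genes was 1.86 and 1.62.

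Among the 8 E2F factors, E2f5 rose (12.5%), E2f4 and E2f8 fell (25%), and 5 were not called. This stands beside 12.4% higher and 10.4% lower of all tested genes, so the share that rose was near that of all genes. E2f4 and E2f5 are repressive factors that act with pocket proteins in resting or G1 cells. E2f5 had 29.7 and 19.9 CPM in d0, 48.3 and 49.6 CPM in d3F and 61.7 and 47.1 CPM in d5FS. Both d0 samples were below the others, d3F and d5FS overlapped, and the change was 1.13 (standard error 0.32, edgeR BH-adjusted p = 0.0383) from d0 to d5FS. E2f4 had 74 and 77.2 CPM in d0, 71.5 and 54.5 CPM in d3F and 27.4 and 43 CPM in d5FS, with no overlap between successive populations, and changed by -1.10 (standard error 0.32, edgeR BH-adjusted p = 0.0418). On the scale of CPM per kb, E2f4 (41.5 and 42.9) was above E2f5 (19.4 and 12.8) in d0, and E2f5 (39.8 and 30.2) was above E2f4 (15.3 and 23.9) in d5FS. Neither call was stable when 1 library was left out, even a d3F library, which is in neither population compared. Without d3F replicate 1 or 2 the changes were -1.109 and -1.098 for E2f4 and 1.125 and 1.136 for E2f5. These were close to the changes from all 6 samples. The E2f4 call was lost without any 1 of the 6 libraries (-1.45 to -0.82), and the E2f5 call without any but d0 replicate 1 (0.88 to 1.32).

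E2f8, an atypical repressor that is itself transcribed in S phase, had 20.3 and 20 CPM in d0, 17.9 and 8.19 CPM in d3F and 4.43 and 4.76 CPM in d5FS. It stepped down without overlap, to between 4 and 5 CPM in both d5FS samples, with a change of -2.13 (standard error 0.44, edgeR BH-adjusted p = 0.0127). The call was lost without either d5FS replicate (-2.09 and -2.18). The activator E2f1 had 12.8 and 23.5 CPM in d0, 15 and 10.9 CPM in d3F and 10.4 and 8.6 CPM in d5FS, with d3F replicate 1 above d0 replicate 1, and a change of -0.93 (standard error 0.40, edgeR BH-adjusted p = 0.125). E2f3, also an activator, had 46.5 and 32 CPM in d0, 53.7 and 34.6 CPM in d3F and 39.2 and 29.5 CPM in d5FS, with overlapping populations and no call, at -0.19 (standard error 0.35, edgeR BH-adjusted p = 0.727). E2f6, a repressor that does not bind pocket proteins, had 25.2 and 17.6 CPM in d0, 30 and 33.3 CPM in d3F and 28.4 and 30.7 CPM in d5FS, with both d5FS samples above both d0 samples and a change of 0.46 (standard error 0.31, edgeR BH-adjusted p = 0.308) that was not called. E2f2 and E2f7 had changes of -0.13 and -0.83 and were not called either.

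None of the 3 pocket proteins was called from d0 to d5FS by edgeR, with 0 at an unadjusted p under 0.05, and DESeq2's Wald test called 0. Rb1 had 25.1 and 6.36 CPM in d0, 12.7 and 7.73 CPM in d3F and 26.8 and 10.3 CPM in d5FS. Replicate 1 was above replicate 2 in each population and all 3 overlapped, so that the change of 0.24 (standard error 0.67, edgeR BH-adjusted p = 0.825) turned negative without d0 replicate 2 (-0.42) or without d5FS replicate 1 (-0.61). Rbl1 had 14.4 and 17.9 CPM in d0, 29.4 and 22.5 CPM in d3F and 24.3 and 20.1 CPM in d5FS, with both d0 samples lowest, and Rbl2 had 5.09 and 4.82 CPM in d0, 3.25 and 2.83 CPM in d3F and 4.77 and 2.69 CPM in d5FS, with d3F and d5FS overlapping. The exons of Rb1 share bases with Rcbtb2 and Lpar6, and those of Rbl2 with Aktip.

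Trp53, the gene of p53, fell from d0 to d5FS. It had 80.1 and 109 CPM in d0, 48.9 and 53.7 CPM in d3F and 15.8 and 38 CPM in d5FS, without overlap at either step, and the change was -1.81 (standard error 0.43, edgeR BH-adjusted p = 0.0205). The call was lost without d0 replicate 2 (-1.57) and without d5FS replicate 1 (-1.32). Mycn, which encodes N-Myc, had 207 and 134 CPM in d0, 104 and 139 CPM in d3F and 101 and 147 CPM in d5FS. Its populations overlapped, with a change of -0.46 (standard error 0.34, edgeR BH-adjusted p = 0.361). Myc had 14.7 and 11.5 CPM in d0, 14.6 and 7.83 CPM in d3F and 6.13 and 6.99 CPM in d5FS, with both d5FS samples lower than every other sample, and its change of -0.996 (standard error 0.41, edgeR BH-adjusted p = 0.112) was not called. Over the 6 samples Mycn lay between 42.2 and 86.8 CPM per kb and Myc between 2.79 and 6.72.

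The 2 steps of the course share the d3F samples with each other and the outer populations with the whole course, so their values are given side by side. From d0 to d3F, edgeR called none of the 51 genes, while 2.8% of all tested genes were called higher and 1.9% lower. At an unadjusted p under 0.05, 5 genes were higher (Ccnd2, Cdkn1b, Cdkn2a, Cdkn2b and E2f5) and 1 was lower (Ccne1). Of all 14539 tested genes, 1710 were higher and 1284 lower at that p. DESeq2's Wald test called 4 of the cell cycle genes higher and 1 lower, beside 844 and 642 of the 14789 genes it tested. With the replicate number as a block, edgeR called Ccnd2, Cdkn1b, Cdkn2a, Cdkn2b and E2f5 higher and 0 cell cycle genes lower. Of all tested genes the block fit called 810 higher and 510 lower. From d3F to d5FS, 1.08% of all tested genes were called higher and 0.461% lower. Ccnd1 was called lower and no cell cycle gene higher, with 12 lower and 3 higher at an unadjusted p under 0.05. Of all 14539 tested genes, 1276 were lower and 1359 higher at that p. DESeq2's Wald test called 5 of the cell cycle genes lower and 1 higher, beside 455 and 604 of the 14789 genes it tested. The block fit called 442 of all tested genes lower and 476 higher. With the block Ccnd1, Cdk6, Mcm2 and Mcm3 were called lower and Cdkn2b higher. Mcm2 then changed by -1.06 (edgeR BH-adjusted p = 0.0404) and Cdk6 by -1.71 (edgeR BH-adjusted p = 0.0335). Without d3F replicate 1, or without either d5FS replicate, 0 cell cycle genes were called in this step by the fit that has no block.

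The populations were also compared by order alone. For 13 of the 51 genes (25.5%) each population lay below the one before it without overlap, against 8.97% of all tested genes. They were Ccnd1, Ccne1, Ccnb1, Cdk2, E2f4, E2f8, Mcm2, Mcm3, Mcm5, Mcm6, Cdt1, Cdc20 and Trp53. The opposite order held for 3 genes, Cdkn1a, Cdkn2a and Cdkn2b (5.88%), against 9.89% of all tested genes. The licensing genes had median changes of -0.40 in the first step and -0.84 in the second, and the CDK inhibitors had medians of 1.31 and 1.06.

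Other genes of the same pathways, taken from lists of S-phase genes, G2/M genes, p53 target genes and partners of E2F complexes, are given as counts from d0 to d5FS. Of 34 S-phase genes 16 (47.1%) were called lower and 0 higher, beside 10.4% and 12.4% of all tested genes. The median of the list was -1.06, and all 34 values were below 0. The largest decreases were those of Ung (a uracil glycosylase, -2.14), Rrm2 (a ribonucleotide reductase subunit, -1.90), Cdca7 (-1.87) and Hells (a chromatin remodeller, -1.87). Cdca7 had 129 and 188 CPM in d0, 136 and 126 CPM in d3F and 43.4 and 43.2 CPM in d5FS and was also called from d3F to d5FS, at -1.59 (standard error 0.30, edgeR BH-adjusted p = 0.0452), a call that was lost without any 1 of the d3F and d5FS libraries (-1.66 to -1.55). With the block 8 S-phase genes were called lower in that step, beside 442 of all 14539 tested genes. From d0 to d5FS, leaving out 1 library lowered the number of calls over all tested genes as well. Without d5FS replicate 1 the number of S-phase genes called lower was 3, without d5FS replicate 2 it was 7 and without d0 replicate 2 it was 10.

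Of 45 G2/M genes 4 were called lower, Hmgb2 (-1.42), Gtse1 (-1.26), Ect2 (-1.24) and Anp32e (-1.05), and the median was -0.43. This was 8.89% of the list, beside 10.4% of all tested genes called lower. Without d5FS replicate 1 the number of G2/M genes called lower was 0, it was 2 without either d3F replicate or without d5FS replicate 2, and with the block it was 6. The E2F words were in 28% of 25 S-phase promoters and 5% of 40 G2/M promoters, and the CHR words in 16% and 72.5%. The share of E2F words among all promoters was 1.8% and that of CHR words 21.7%.

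Of the 10 partners of E2F and pocket proteins in the MuvB, Myb and DP list, 3 (30%) were called lower and 0 higher. Of all tested genes 10.4% were called lower. The median of the list was -0.35, with 7 values below 0 and 3 above. Mybl2, which joins the MuvB complex to activate mitotic genes, had 207 and 614 CPM in d0, 61.3 and 59.3 CPM in d3F and 50.6 and 86.6 CPM in d5FS. It was called lower in d3F, at -2.77 (standard error 0.53, edgeR BH-adjusted p = 0.0271), and in d5FS, at -2.58 (standard error 0.52, edgeR BH-adjusted p = 0.0124). The E2F dimerization partners Tfdp1 and Tfdp2 fell by 1.20 and 1.03 on the log2 scale. The number of these partners called lower was 0 without d5FS replicate 1, 1 without d0 replicate 2 or without d5FS replicate 2, and 2 without any other library. The d3F call of Mybl2 was lost without d0 replicate 2 (-1.77) and without either d3F replicate (-2.79 and -2.73). The d5FS call of Mybl2 was lost without d5FS replicate 1 (-2.25). That of Tfdp1 was lost without d0 replicate 2 (-1.205) and without either d5FS replicate (-1.121 and -1.281). The Tfdp2 call was lost in every fit without 1 library (-1.123 to -0.9406). Of 23 p53 target genes, Fas (2.75) and Btg2 (1.98) rose, Bax (-1.26) and 9630033F20Rik (-1.59) fell, and the median was 0.14. These were 8.7% of the list in each direction, below the 12.4% higher and 10.4% lower of all tested genes. Without d5FS replicate 1 no p53 target gene was called, without d5FS replicate 2 1 was called higher and 0 lower, without d0 replicate 1 the counts were 4 and 3, and without either d3F replicate 1 was called lower.

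**Figure D5:**
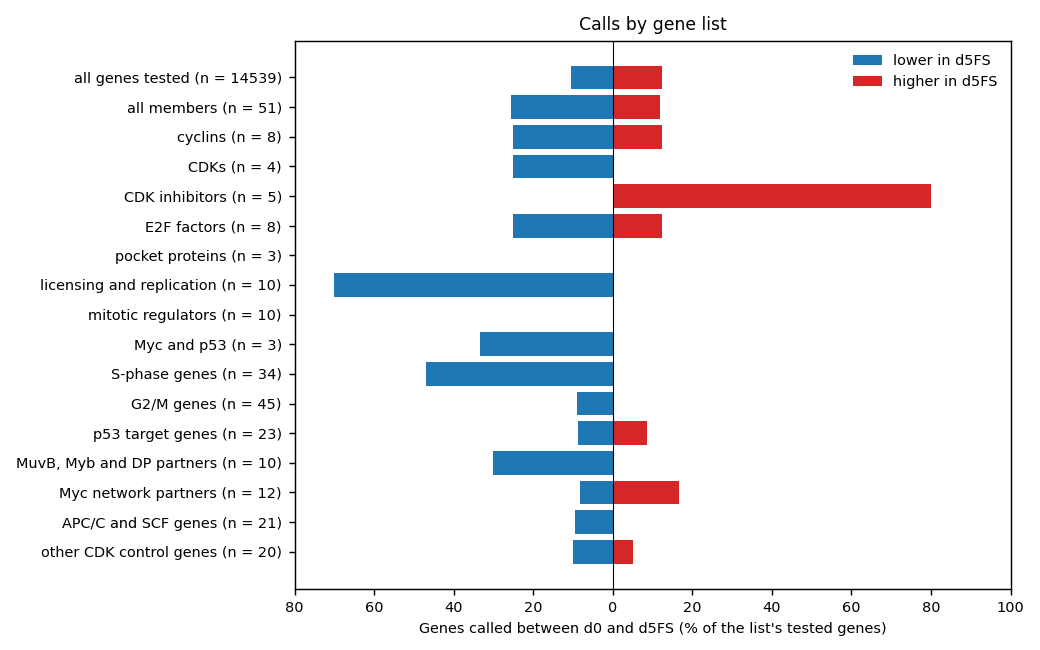
Percent of each list's tested genes (x axis; list size on the y axis) called lower (left, blue) or higher (right, red) from d0 to d5FS. Licensing (7 of 10) and S-phase genes (16 of 34) reach farthest to the left and CDK inhibitors (4 of 5) farthest to the right, beside 10.4% lower and 12.4% higher of all tested genes.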

How the data were processed

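RNA was sequenced as paired ends in 6 samples, 2 each of d0, d3F and d5FS, grouped by the labels. Per the labels and methods, the authors aligned reads to mm10 with STAR and estimated gene values with RSEM (versions and annotation release not given in the sources used here), and tested them with DESeq2. The authors deposited 1 RSEM table per sample with an expected count, a TPM and an FPKM value for 24054 genes. Expected counts, 16457729 to 22768686 per sample, were rounded to whole numbers. TPM entered only the scaling check, and FPKM was not used. RSEM shares reads between overlapping or near-identical genes, which makes their counts uncertain. Besides the overlaps named above, exons of Ccna2 share bases with Exosc9 and those of Ccnd3 with Bysl. Exons of Cdc20, Cdc25b, E2f5 and E2f7 also share bases with other genes.

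Genes passing filterByExpr (14539) were scaled with TMM and fitted over all 6 samples by edgeR's quasi-likelihood test (edgeR 4.0.16, R 4.3.3, limma 3.58.1; 3 residual degrees of freedom, prior count 0.125), with Benjamini-Hochberg adjustment over all tested genes. Calls required an adjusted p below 0.05 together with a log2 fold change beyond 1 in either direction. The standard error is the fold change divided by the root of its F. With 2 against 2 samples an exact two-sided permutation test cannot go below p = 0.33, so none was run. Same-numbered samples deviated alike: the replicate differences of population pairs correlated at 0.354, 0.381 and 0.343 over 14539 genes, each over 0.1 for 3 pairs, so the fit with the replicate number as a block is given where it changes a member's call or moves a printed count by over 1.5 times. Replicate counts differed beyond sampling noise (chi-square over its degrees of freedom was 144.7 in d0, 67.95 in d3F and 61.66 in d5FS).

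The members and gene lists were chosen with earlier results of these data known. Values in every sample are given for each called member and for the most abundant others of each role. They are also given for Ccnd3, Ccne2, Mki67 and Plk1, which that rule did not select. From each other list at most 4 called genes per direction are named, and the uncalled Cdkn1c is given beside the CDK inhibitors. Alternatives were DESeq2 1.42.0 (Wald test, also against a log2 fold change of 1), glmTreat, DESeq2 size factors, library size only, no fold minimum, no filter, a minimum of 10 counts per sample, the replicate block, only the groups compared, each library left out, and, chosen after seeing the data, a fit without genes under 200 bases of effective length. The fits were tested on simulated data. Gene positions are GENCODE M21 on mm10. Promoters came from a RefSeq table (GRCm38.p6; 40 of 52 members matched) and were searched with Python 3.11.15 and pandas 2.3.3, and plots were drawn with matplotlib 3.10.9.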

Additional observations from a re-analysis of the deposited data

How the results depend on the processing

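From d0 to d5FS, where 6 cell cycle genes were called higher and 13 lower, glmTreat and DESeq2's Wald test against a log2 fold change of 1 each called 2 higher and 2 lower, and leaving out 1 library gave 2 to 5 higher and 3 to 10 lower. Of the 19 called genes, 4 kept their calls in all 17 alternatives, 15 lost them in 3 to 10, and none changed direction. From d0 to d3F, with 0 called, the count higher was 1 with library size only, 4 with DESeq2's Wald test, 4 with no filter and 5 with the replicate block, and the count lower was 1 with DESeq2's Wald test and 1 with no filter. Without 1 library it was 0 to 1 higher and 0 lower. From d3F to d5FS, with 0 higher and 1 lower, DESeq2's Wald test gave 1 and 5, no filter 1 and 7 and the replicate block 1 and 4. The fit on only the groups compared gave 1 higher, and leaving out 1 library gave 0 to 1 higher and 0 to 1 lower. The replicate block, a check of the pairing, added Cdc20 to the genes called from d0 to d5FS and changed no other member's call there. Over the same interval it called 20 S-phase genes lower, and 3 p53 target genes higher and 3 lower. It also called 3 genes of the Myc and Max network higher and 3 other CDK control genes lower. The cause was not tested.

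Genes that were not called and changed sign from d0 to d5FS were Ccnb2 (0.013 with library size only), Cdkn2d (-0.32 to 0.61 without 1 library), Cdk1 (-0.46 to 0.061, with 0.012 without d5FS replicate 1), E2f3 (-0.42 to 0.088, with 0.0082 without d5FS replicate 2), Aurka (-1.60 to 0.38, with 0.29 without d0 replicate 2) and Rb1 (-0.61 to 1.53, with -0.42 without d0 replicate 2).

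Over all tested genes 683 were called in the step to d3F, 224 in the step from d3F to d5FS, and 3313 over the whole course. The counts moved by over 1.5 times to 1486 and 1059 in the single steps with DESeq2's Wald test, to 1933 and 1423 with no filter, to 1320 and 918 with the replicate block, to 430 and 529 with only the groups compared, and to 357 and 144 with at least 10 counts in every sample. They were 242, 70 and 1235 with glmTreat, 385 from d0 to d3F and 1004 from d0 to d5FS with DESeq2 against a log2 fold change of 1, and 135 from d3F to d5FS with library size only. Leaving out 1 library gave 97 to 977, 0 to 496 and 1047 to 3037.

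Among counts simulated for d0 and d5FS over 14480 genes, edgeR called 21% of genes changed by 1.5 on the log2 scale and 99% of those changed by 3. The simulation changed only a small part of the genes and gave every gene the same spread between replicates. In the real comparison 3313 genes were called, so these shares are not the chance of a call there. With 2 samples a population, a gene that was not called is not shown to be unchanged. With TPM rescaled by the TMM factors, the medians relative to all tested genes were -1.3 for the licensing genes and 1.6 for the CDK inhibitors from d0 to d5FS.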

Other observations

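Further genes around the cell cycle set were tested from d0 to d5FS. Among 12 genes of the Myc and Max network, Mxi1 and Mycl rose and Mxd3 fell, and the median log2 fold change was 0.64. These were 16.7% higher and 8.33% lower of the list, beside 12.4% and 10.4% of all tested genes. Mxi1, an antagonist of Myc that binds Max, had 8.42 and 21.4 CPM in d0, 20.2 and 16.2 CPM in d3F and 98.5 and 115 CPM in d5FS. Both d5FS samples were above all others, with a change of 2.84 (standard error 0.46, edgeR BH-adjusted p = 0.00547) from d0 and 2.56 (standard error 0.45, edgeR BH-adjusted p = 0.0389) from d3F, and the call from d3F was lost without any 1 of the d3F and d5FS libraries (2.40 to 2.71). Mycl, which encodes L-Myc, had 21.9 and 33.5 CPM in d0, 142 and 166 CPM in d3F and 97.2 and 127 CPM in d5FS. It was called higher in d3F, at 2.47 (standard error 0.33, edgeR BH-adjusted p = 0.0105), and in d5FS, at 2.02 (standard error 0.33, edgeR BH-adjusted p = 0.00573), and the d3F call was lost without d3F replicate 2 (2.37). Mxd3, also a Max partner, had 5.26 and 8.87 CPM in d0, 3.57 and 3.89 CPM in d3F and 1.25 and 2.47 CPM in d5FS, and its call was kept in 1 of the 6 fits without 1 library, the one without d0 replicate 1.

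Of 21 genes of the ubiquitin ligases APC/C and SCF, Fbxo5 (an inhibitor of the APC/C, -1.15) and Skp2 (which targets p27 for degradation, -1.15) were called lower from d0 to d5FS by edgeR, and the median was -0.53. This was 9.52% of the list, close to the 10.4% of all tested genes called lower. Skp2 had 50.6 and 60.1 CPM in d0, 49 and 48.7 CPM in d3F and 19.8 and 30 CPM in d5FS, with both d5FS samples below the rest. Skp2 kept its call in 1 of the 6 fits without 1 library, the one without d0 replicate 1, and Fbxo5 in 0 of them. Of 20 tested genes in a list of other CDK control genes, Ccng2 (1.70) rose and the origin recognition genes Orc1 (-1.38) and Orc2 (-1.49) fell, with a median of -0.50. The lower calls were 10% of the list and the higher call 5%, beside 10.4% and 12.4% of all tested genes. Orc2 had 157 and 162 CPM in d0, 90 and 77.6 CPM in d3F and 53.7 and 60.1 CPM in d5FS, with no overlap between populations at either step. Without d5FS replicate 1 none of the 20 was called. Ccng2 also lost its call without d5FS replicate 2 (1.73), and Orc1 without d0 replicate 2 (-1.23).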
